A study of Homo sapiens with 9 samples.

Results

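Integrins, the focal adhesion proteins behind them and the actin cytoskeleton they hold were followed at the RNA level in MDA-MB-453 cells that were attached, held in suspension, or held in suspension with AT0174. A list of 59 gene symbols was taken, and a gene was kept if it had at least 10 estimated counts in at least 3 of the 9 libraries. The list was chosen with earlier results of these data known, so the shares called below describe it and do not test it. Of the 59 genes, 50 passed this rule, out of 15625 genes that passed it among 59452 rows of the gene table. They comprised 8 integrin alpha chains, 5 integrin beta chains, 17 adhesion adaptors and kinases, 15 actins with their binding and motor proteins, 2 membrane linkers, and the genes *RND3*, *RHOB* and *RHOA*.

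MDA-MB-453 is an established human breast cancer cell line, given as triple-negative and WT in the sample descriptions and grown in DMEM with 10% FBS. The 3 groups had 3 libraries each, described as biological triplicates: attached culture with vehicle (DMSO), forced suspension culture with vehicle, and forced suspension culture with 10 μM AT0174, an inhibitor of the tryptophan-degrading enzymes TDO2 and IDO. Suspension was forced with poly-HEMA, a coating to which cells cannot adhere, and every group was treated for 48 hours. No attached cells with AT0174 were among the libraries, so the response to AT0174 could be compared with vehicle in suspension alone. All values come from 1 cell line, and RNA was taken from the cells present at 48 hours, so a loss of cells with a given level and a lower level per cell cannot be told apart.

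Integrins are receptors made of 1 alpha and 1 beta chain that bind matrix outside the cell. Talin and kindlin bind the beta chain tail and switch the receptor on, after which vinculin, paxillin, tensin and zyxin assemble a focal adhesion that couples it to actin filaments, and the kinases FAK and SRC and the scaffold p130Cas signal from it. Actin and many of its binding proteins are textbook targets of SRF, a transcription factor that binds the CArG box and whose cofactors, the MRTFs, are held back by unpolymerized actin.

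The libraries held 36649997 to 48019126 estimated counts, and no pair was identical. The share of counts from the mitochondrial genome was 7.56% to 9.32% in attached cells, 4.05% to 4.34% in suspension with vehicle and 3.73% to 5.51% in suspension with AT0174. Leaving those genes out of the fit gave 16 and 5 members past the threshold in the comparisons of suspension and of AT0174, in place of 15 and 4, in an alternative chosen after the data had been seen. Values are given as CPM, library-size and TMM-scaled counts, for a gene between libraries, and as TPM, which also divides by transcript length, for levels between genes. All 11 marker genes listed for the identity of this line were expressed, with 7680 to 8746 CPM in sum, and *ERBB2* had a mean of 412 TPM although the line is labelled triple-negative, while *ESR1*, *PGR*, *KRT5*, *KRT14* and *VIM* summed to 0.181 to 0.618 CPM. Most markers of other cells were scarce, but *COL1A1* was not, with a mean of 56.0 TPM. Of 6 fibroblast markers only *COL1A1* passed the count rule, the list summing to 131 to 149 CPM in attached cells and 107 to 114 CPM in both suspension groups, while *DCN*, *LUM* and *THY1* had 0 counts in all 9 libraries, which allows up to 0.0625 to 0.0819 CPM each. Of 5 smooth muscle or myoepithelial markers only *TAGLN* passed, at a list sum of 6.66 to 9.66 CPM with *DES* at 0, of 5 leukocyte markers only *CD68*, at 1.27 to 2.40 CPM, and of 4 endothelial markers none, at 0.145 to 0.340 CPM. The part of these signals in the results was not tested.

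Of the 59 genes, 45 had a promoter entry in RefSeq (GRCh38.p14), and the 250 bases before the transcription start were searched on both strands for the CArG box, for the AP-1 letters TGANTCA and for the TEAD letters GGAATG. A CArG box stood in 8 of the 45 (*ACTG1*, *ACTN1*, *CNN2*, *FLNA*, *ITGB6*, *RND3*, *TES* and *TPM4*), against 1.44% of the 27305 genes with an entry in that table. The AP-1 letters were found for 5 of the 45 and for 8.06% of all genes with an entry, and the TEAD letters for 11 of the 45 and for 14.3% of them. The windows below belong to the 4 members that were lower with AT0174, the comparison in which fewest genes changed. Capitals mark the CArG box in *CNN2* (89 to 80 bases before the start) and in *ACTG1* (94 to 85 bases before) and the TEAD letters in *VCL* (171 to 166 bases before), and *ZYX* held none of the 3 motifs. Coordinates are chr10:73997866-73998115 for *VCL*, chr7:143381095-143381344 for *ZYX* and chr19:1026358-1026607 for *CNN2*, all on the plus strand, and chr17:81512800-81513049 on the minus strand for *ACTG1*. Each sequence runs from 5′ to 3′ and ends at the base before the start.
VCL: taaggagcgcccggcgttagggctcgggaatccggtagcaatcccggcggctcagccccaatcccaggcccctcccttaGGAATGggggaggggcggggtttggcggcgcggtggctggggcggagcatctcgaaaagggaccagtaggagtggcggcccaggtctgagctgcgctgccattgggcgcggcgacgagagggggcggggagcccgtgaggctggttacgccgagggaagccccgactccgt
ZYX: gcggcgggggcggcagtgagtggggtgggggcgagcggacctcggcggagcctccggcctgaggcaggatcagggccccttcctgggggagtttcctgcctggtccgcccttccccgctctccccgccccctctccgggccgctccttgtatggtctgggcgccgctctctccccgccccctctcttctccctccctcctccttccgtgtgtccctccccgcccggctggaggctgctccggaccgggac
CNN2: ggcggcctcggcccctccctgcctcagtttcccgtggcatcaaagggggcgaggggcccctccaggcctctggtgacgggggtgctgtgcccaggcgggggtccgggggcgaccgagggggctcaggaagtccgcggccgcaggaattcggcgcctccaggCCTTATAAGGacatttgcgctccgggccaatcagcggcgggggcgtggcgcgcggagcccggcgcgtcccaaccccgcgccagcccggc
ACTG1: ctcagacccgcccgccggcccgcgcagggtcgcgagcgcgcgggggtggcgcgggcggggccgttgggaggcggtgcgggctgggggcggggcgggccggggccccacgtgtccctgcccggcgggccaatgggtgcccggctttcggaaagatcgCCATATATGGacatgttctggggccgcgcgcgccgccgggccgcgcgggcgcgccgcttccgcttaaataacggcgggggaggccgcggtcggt
A match of letters is a description of the window and does not show that a factor binds there.

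Between suspension and attachment, both with vehicle, 15 of the 50 genes passed an adjusted p of 0.05 in edgeR's quasi-likelihood test (30%), against 21.2% of the 15528 genes tested. *RHOB*, *ACTG1*, *TAGLN2*, *ACTB*, *VCL*, *RHOA* and *EZR* were higher in suspension (7 genes, background 10.4% of all genes), and *TPM2*, *TNS3*, *FERMT2*, *NEDD9*, *RND3*, *PXN*, *ITGB4* and *ITGA3* were lower (8 genes, background 10.8%). The largest falls were in the tropomyosin gene *TPM2*, in *TNS3*, whose product tensin-3 ties integrins to filaments, and in *FERMT2*, the gene of the integrin activator kindlin-2, and the genes that rose included both cytoplasmic actins. Positive and negative log2 fold changes were equally frequent, with 25 of 50 above 0 and a median absolute value of 0.10, against 0.12 over all genes tested. In 28 of the 50 genes the 3 suspension libraries lay wholly above or wholly below the 3 attached ones, which was true of 38.1% of all genes tested.

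With AT0174, 4 of the 50 genes passed the threshold against vehicle in suspension (8%), against 0.779% of all genes tested. All 4 were lower, namely *VCL*, *ZYX*, *CNN2* and *ACTG1*, against a background of 0.258% of genes called lower. Other settings did not all give 1 direction, since DESeq2 called 2 members higher and 7 lower, and the fit without a filter 3 higher and 6 lower. *VCL*, *ZYX*, *CNN2* and *ACTG1* encode vinculin and zyxin of the adhesion plaque, calponin-2 on the filament and gamma-actin itself. The RNA levels of these 4 genes fell by 0.20 to 0.34 on the log2 scale. None of the 13 integrin chains passed by edgeR's test with its filter, with 1 of them at an unadjusted p under 0.05, and *ITGB4* was called higher with DESeq2 and with edgeR without a filter on low counts. Over the 50 genes the median absolute log2 fold change was 0.066, against 0.060 over all genes tested, and the groups did not overlap in 15 of 50, against 15.4% of all genes. The 2 comparisons share the suspension libraries with vehicle, with opposite sign, so the level in attached cells is given beside each value below.

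**Figure D1:**
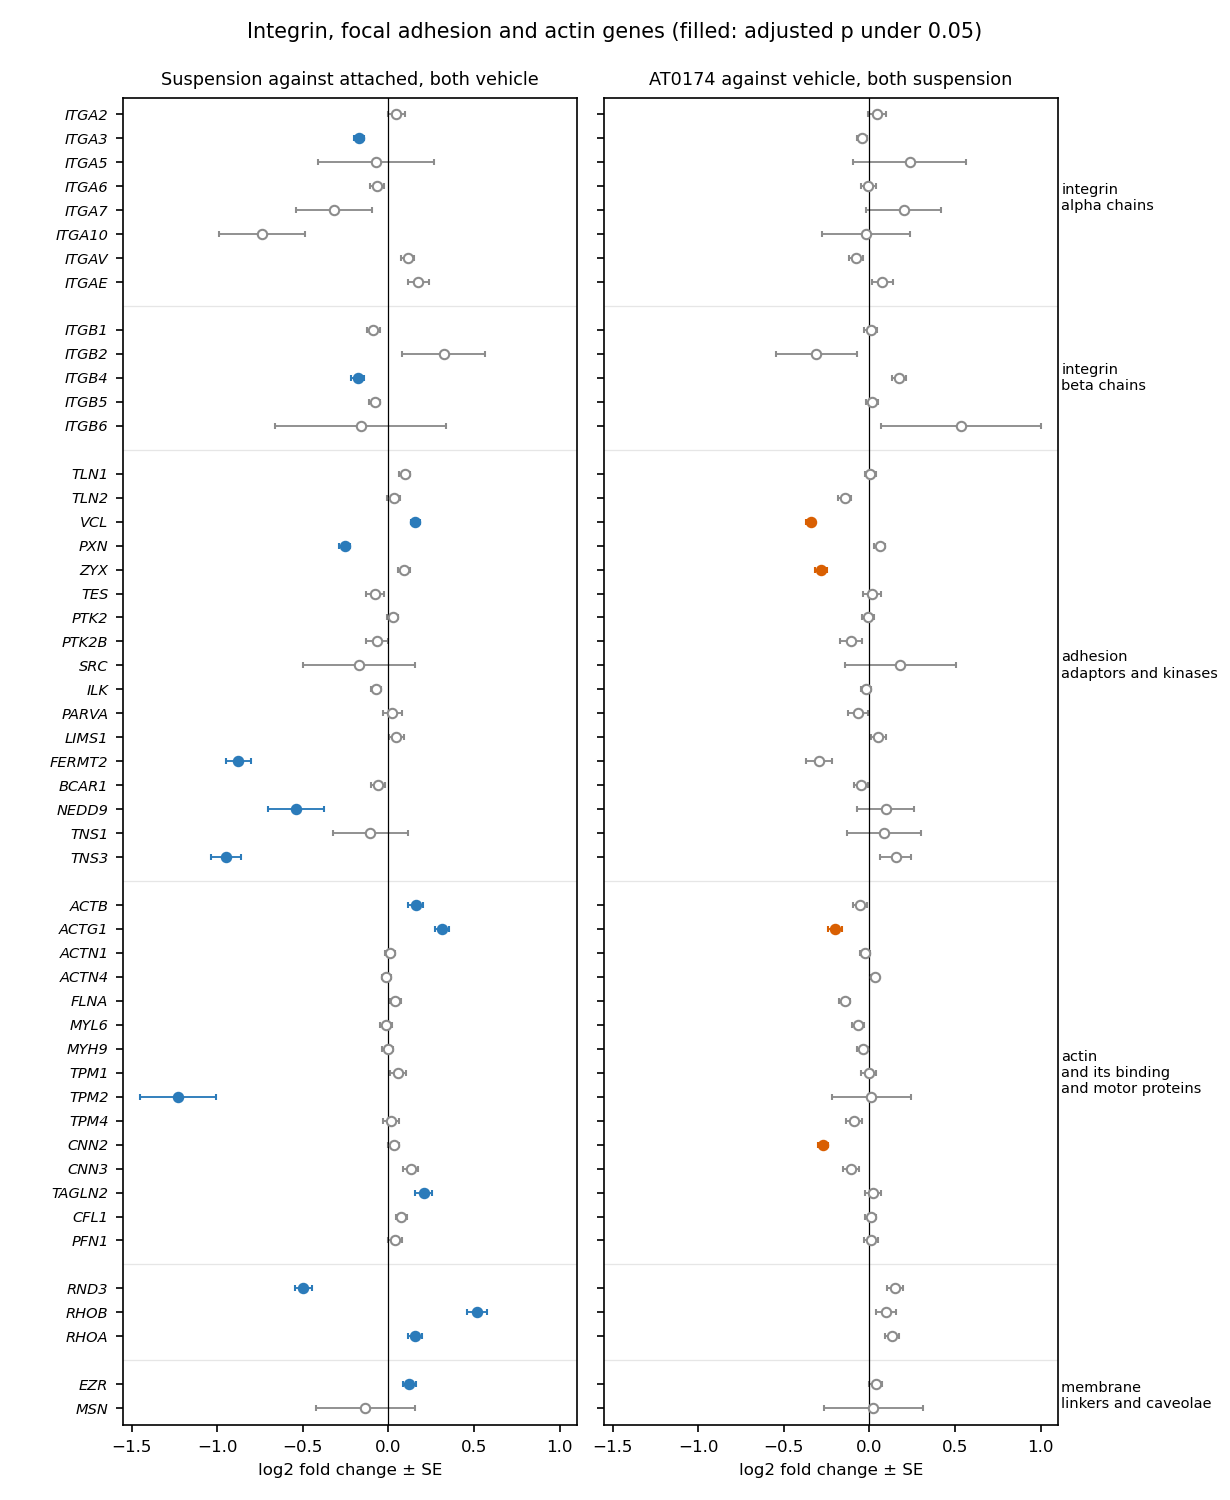
Log2 fold change ± SE (horizontal axis) of each of the 50 genes (vertical axis, by role) for suspension against attached culture (left, blue) and AT0174 against vehicle in suspension (right, orange). Filled points passed an adjusted p of 0.05: 15 on the left, from -1.23 in TPM2 to 0.52 in RHOB, and 4 on the right, all below 0.

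Among alpha chains, which set the ligand a receptor binds, *ITGA3*, the laminin-binding alpha-3 chain, led with 172 TPM on average over the 9 libraries, and it made up 67.7% ± 1.14 (SD, n = 3) of the TPM of listed alpha chains in attached cells. The RGD-binding chain *ITGAV* (32.3 TPM), the E-cadherin-binding *ITGAE* (27.4 TPM), the laminin-binding *ITGA6* (19.3 TPM) and the collagen-binding *ITGA2* (9.32 TPM) followed. The place of *ITGAE* in this order rests on a 4-exon transcript with no defined coding sequence, which held 90.3% to 95.1% of its TPM in the authors' Salmon estimates, and *HASPIN* overlaps *ITGAE* on the other strand, at 18.0 CPM against 10.0 CPM. *ITGA7*, *ITGA10* and the fibronectin-binding *ITGA5* were at 1.45, 0.723 and 0.349 TPM. Of the beta chains, the widely shared *ITGB1* led with 160 TPM, followed by *ITGB5* (97.3 TPM), which pairs with *ITGAV*, and by *ITGB4* (39.4 TPM), the partner of *ITGA6* in hemidesmosomes. By the same Salmon estimates, ITGB5-201 of 799 residues held 14.9% to 19.9% of the *ITGB5* TPM. ITGB4-203 of 1752 residues held 23.5% to 38.7% of the *ITGB4* TPM. The values of both genes thus also count shorter or non-coding transcripts. The same holds for the leading chains. ITGB1-201 of 798 residues held 53.6% to 66.6% of the *ITGB1* TPM, and ITGA3-202 of 1051 residues held 59.9% to 68.1% of the *ITGA3* TPM. *ITGB2* and *ITGB6* were at 1.07 and 0.137 TPM. Below the count rule lay *ITGA1*, *ITGA9*, *ITGB7* and *ITGB8*, with at most 5 counts in any library, and *ITGB3*, with 0 counts in all 9. *ITGB6* lay just inside, with 10 counts in its third-highest library, while the third-highest count of the genes left out was 4 or less.

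**Figure D2:**
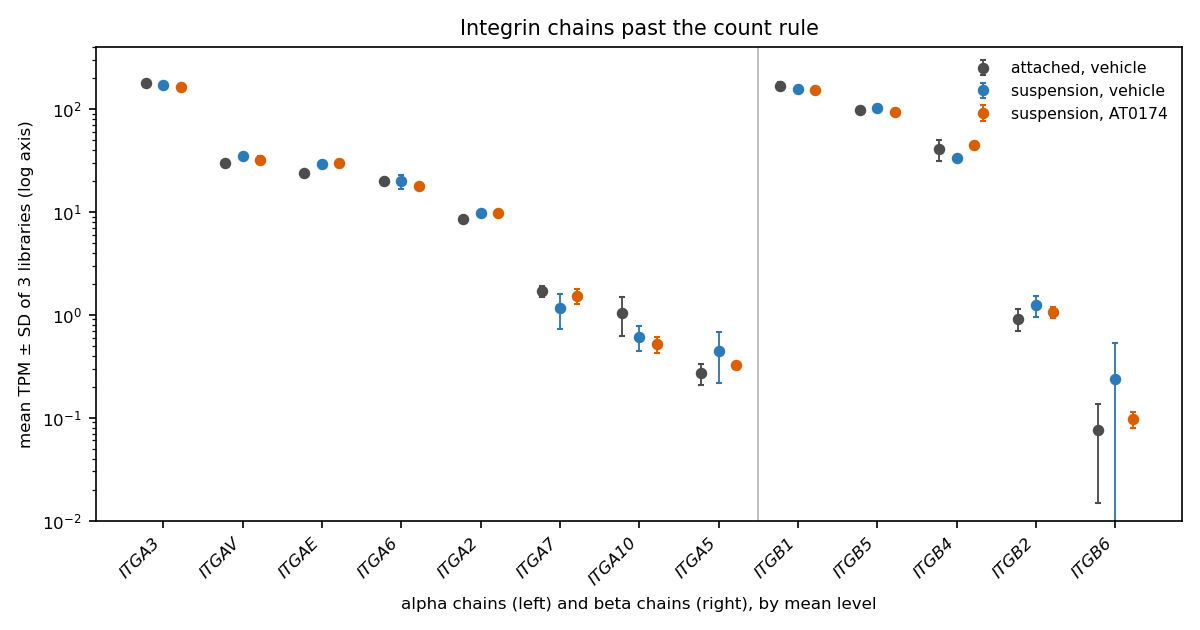
Mean TPM ± SD of 3 libraries (vertical, log axis) of the 13 integrin chains past the count rule (horizontal), in attached cells with vehicle (grey), suspension with vehicle (blue) and suspension with AT0174 (orange), with error bars that reach 0 or less cut at the axis. ITGA3 and ITGB1 lead their families in all 3 groups, and ITGB6 has the widest spread for its level.

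Between suspension and attachment 2 of the 13 chains passed the threshold (15.4%, against 21.2% of all genes tested). *ITGA3* (chr17:50055968-50090481, plus strand) had 436, 446 and 457 CPM in the attached libraries, 399, 393 and 399 CPM in suspension with vehicle, and 390, 381 and 386 CPM in suspension with AT0174. Every suspension library was thus below every attached one, and the log2 fold change was -0.17 (SE 0.029, adjusted p = 0.00198 by edgeR's quasi-likelihood test). *ITGB4* (chr17:75721328-75757818, plus strand) had 71.5, 74.5 and 70.2 CPM attached, 63.0, 66.4 and 61.4 CPM in suspension with vehicle, and 73.0, 69.8 and 72.3 CPM with AT0174. It was lower in suspension by -0.18 (SE 0.040, adjusted p = 0.00848), and with AT0174 its libraries lay wholly above those of vehicle, at a log2 fold change of 0.17 (SE 0.040) that missed the threshold with an adjusted p of 0.0829. AT0174 in suspension and attached culture did not separate for *ITGB4*, with a log2 fold change of -0.007 and an adjusted p of 0.925. The *GALK1* gene on the other strand overlaps *ITGB4*, at 29.6 CPM, and strand use in counting is not given in the sources used here, so shared reads cannot be told apart. Both calls were lost with counts rebuilt from TPM (adjusted p = 0.0917 and 0.0766), where the log2 fold change of *ITGB4* was -0.37.

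*ITGB1* had 340, 331 and 325 CPM attached, 325, 296 and 316 CPM in suspension with vehicle, and 315, 304 and 323 CPM with AT0174. The log2 fold change between suspension and attachment was -0.09 (SE 0.038, adjusted p = 0.118). The other 10 chains also missed the threshold in both comparisons. Those closest to it in suspension were *ITGA10*, a collagen-binding chain at -0.74 (SE 0.251, adjusted p = 0.0544), *ITGAE* at 0.175 (SE 0.061, adjusted p = 0.0594) and *ITGAV* at 0.11 (SE 0.040, adjusted p = 0.0662). Of 20 other settings *ITGA10* passed under 5 and *ITGAV* under 4, both including no filter and the replicate block, and *ITGAE* under 0. *ITGA10* had 1.65, 1.91 and 3.27 CPM in attached cells, a wide spread, against 1.14 to 1.48 CPM in suspension with vehicle. With AT0174 the adjusted p of the 13 chains ran from 0.0829 for *ITGB4* to 0.994.

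Among the 17 adaptors and kinases, 5 passed between suspension and attachment (29.4%, against 21.2% of all genes tested). Of the 5, 1 was higher and 4 were lower (backgrounds 10.4% and 10.8%). *FERMT2* (chr14:52857268-52952435, minus strand), which encodes the integrin activator kindlin-2, had 52.5, 48.5 and 53.0 CPM in attached cells, 28.4, 25.1 and 30.5 CPM in suspension with vehicle, and 23.2, 20.8 and 24.4 CPM with AT0174. It fell by 45.5% with detachment, a log2 fold change of -0.88 (SE 0.073, adjusted p = 1.13e-05). The 3 AT0174 libraries lay below the 3 vehicle libraries as well, but the further log2 fold change of -0.295 (SE 0.075) did not pass (adjusted p = 0.134). It passed under 4 of 20 other settings, namely DESeq2, no filter, the replicate block and without suspension vehicle replicate 2. Of its paralogs, *FERMT1*, which encodes kindlin-1, had 0 counts in every library, and *FERMT3*, which encodes kindlin-3, had 16 to 36 counts and 1.02 TPM on average, against 16.8 TPM for *FERMT2*.

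*TNS3* (chr7:47275154-47582558, minus strand) encodes tensin-3, which binds the tail of beta chains and actin. Its level was 30.6, 32.9 and 32.5 CPM attached, 15.3, 19.7 and 14.5 CPM in suspension with vehicle, and 18.2, 19.1 and 17.9 CPM with AT0174. The fall with detachment was -0.95 (SE 0.089, adjusted p = 3.49e-05), and the AT0174 libraries lay within the range of those with vehicle. Over 20 other settings the log2 fold change with detachment ran from -1.10 to -0.62 and passed in each. Mean TPM of the gene was 7.33 attached and 5.10 in suspension with vehicle. *TNS1*, at 0.480 TPM on average, showed -0.11 in suspension (SE 0.219, adjusted p = 0.779). By transcript, as the deposited TPM values give them, TNS3-201, which codes for 1445 residues, had 5.53, 5.90 and 5.74 TPM attached and 2.85, 3.79 and 2.80 TPM in suspension with vehicle. TNS3-202, with a reading frame of 108 residues, had 1.83, 1.32 and 0.954 TPM attached and 1.82, 2.27 and 1.62 TPM in suspension. The share of TNS3-201 in the gene's TPM was 78.2% ± 4.72 (SD, n = 3) in attached cells, 61.8% ± 1.03 in suspension with vehicle and 64.7% ± 6.25 with AT0174, and did not overlap between attached cells and either suspension group. These shares are the authors' Salmon estimates from short reads and were not tested.

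**Figure D3:**
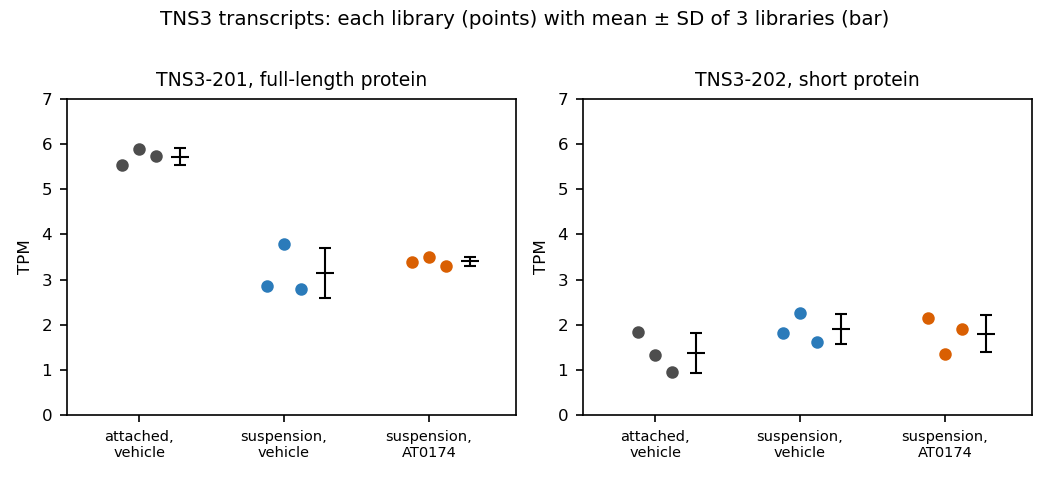
TPM (vertical axis) of the TNS3 transcripts TNS3-201 (left) and TNS3-202 (right) in each library (points) with the mean ± SD of 3 libraries (bars), by group (horizontal axis). The full-length form lies between 5.53 and 5.90 TPM in attached cells and between 2.80 and 3.79 TPM in both suspension groups, and the short form overlaps between groups.

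*PXN* (chr12:120210439-120265771, minus strand), the gene of the adhesion scaffold paxillin, had 225, 237 and 229 CPM attached, 196, 197 and 186 CPM in suspension with vehicle and 202, 199 and 202 CPM with AT0174. It was lower in suspension by -0.26 (SE 0.033, adjusted p = 0.000430), with no overlap between the groups. *NEDD9*, a scaffold of the p130Cas family, was scarce, with 2.75, 3.18 and 4.12 CPM attached, 2.38, 2.02 and 2.53 CPM in suspension with vehicle and 2.44, 2.44 and 2.52 CPM with AT0174. Its log2 fold change of -0.54 (SE 0.164, adjusted p = 0.0352) lost the threshold when any 1 of 5 of the 6 libraries compared was left out, all but attached replicate 1. *BCAR1*, the gene of p130Cas itself, was at -0.06 (SE 0.041, adjusted p = 0.335).

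Vinculin, which *VCL* (chr10:73995193-74121363, plus strand) encodes, links talin to actin. The level was 132, 133 and 130 CPM in attached cells, 148, 148 and 145 CPM in suspension with vehicle, and 116, 115 and 117 CPM in suspension with AT0174. The 3 groups were wholly separate, with suspension highest and AT0174 lowest. *VCL* rose by 0.16 with detachment (SE 0.028, adjusted p = 0.00285) and fell by 0.34 with AT0174 (SE 0.028, adjusted p = 3.74e-05). Against attached cells, AT0174 in suspension was at -0.185 (SE 0.029, adjusted p = 0.000882). The fall with AT0174 passed under all 20 other settings of the fit, whereas the rise with detachment was lost with counts rebuilt from TPM (adjusted p = 0.0860). *AP3M1* overlaps *VCL* on the other strand, at 43.3 CPM. The transcript of metavinculin length, VCL-201 with 1134 residues and 1 exon more than VCL-202, held 54.4% to 69.1% of the gene's TPM over the 9 libraries, and VCL-202 of 1066 residues held 24.5% to 30.6%. Both had their lowest mean with AT0174, at 20.9 and 8.61 TPM against 26.6 and 11.0 TPM in suspension with vehicle.

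*ZYX* (chr7:143381295-143391111, plus strand) encodes zyxin, which comes to adhesions and strained filaments under tension. It had 107, 115 and 108 CPM attached, 119, 117 and 115 CPM in suspension with vehicle, and 98.0, 96.3 and 94.5 CPM with AT0174. The AT0174 libraries lay below all 6 others. Detachment alone gave 0.09 (SE 0.035, adjusted p = 0.0935; -0.074 with counts rebuilt from TPM, and past the threshold without attached replicate 2), AT0174 lowered *ZYX* by -0.28 (SE 0.035, adjusted p = 0.00159), and AT0174 in suspension stood at -0.19 against attached cells (SE 0.035, adjusted p = 0.00227). The call with AT0174 was lost with counts rebuilt from TPM (adjusted p = 0.271) and kept under the other 19 settings. *EPHA1* overlaps *ZYX* on the other strand, at 33.5 CPM.

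*TLN1*, the gene of talin-1, had 433, 444 and 447 CPM attached, 470, 480 and 463 CPM in suspension with vehicle, and 487, 456 and 474 CPM with AT0174. Its groups in the comparison of detachment did not overlap, but the log2 fold change of 0.09 (SE 0.032) had an adjusted p of 0.0527 and passed under 6 of 20 other settings. *PTK2*, which encodes FAK, had 100.1, 98.6 and 95.6 CPM attached, 103, 97.6 and 99.1 CPM in suspension with vehicle and 99.4, 98.2 and 100.1 CPM with AT0174, with overlap throughout. The other adaptors and kinases that missed the threshold in suspension, 12 with *TLN1* and *PTK2* among them, had log2 fold changes from -0.17 to 0.09. Those included the members of the ILK, PINCH and parvin complex (*ILK*, *LIMS1* and *PARVA*), at -0.07, 0.05 and 0.02. With AT0174, 15 of the 17 missed the threshold, with adjusted p-values from 0.134 to 0.988, and *SRC* had 11 to 27 counts per library.

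**Figure D4:**
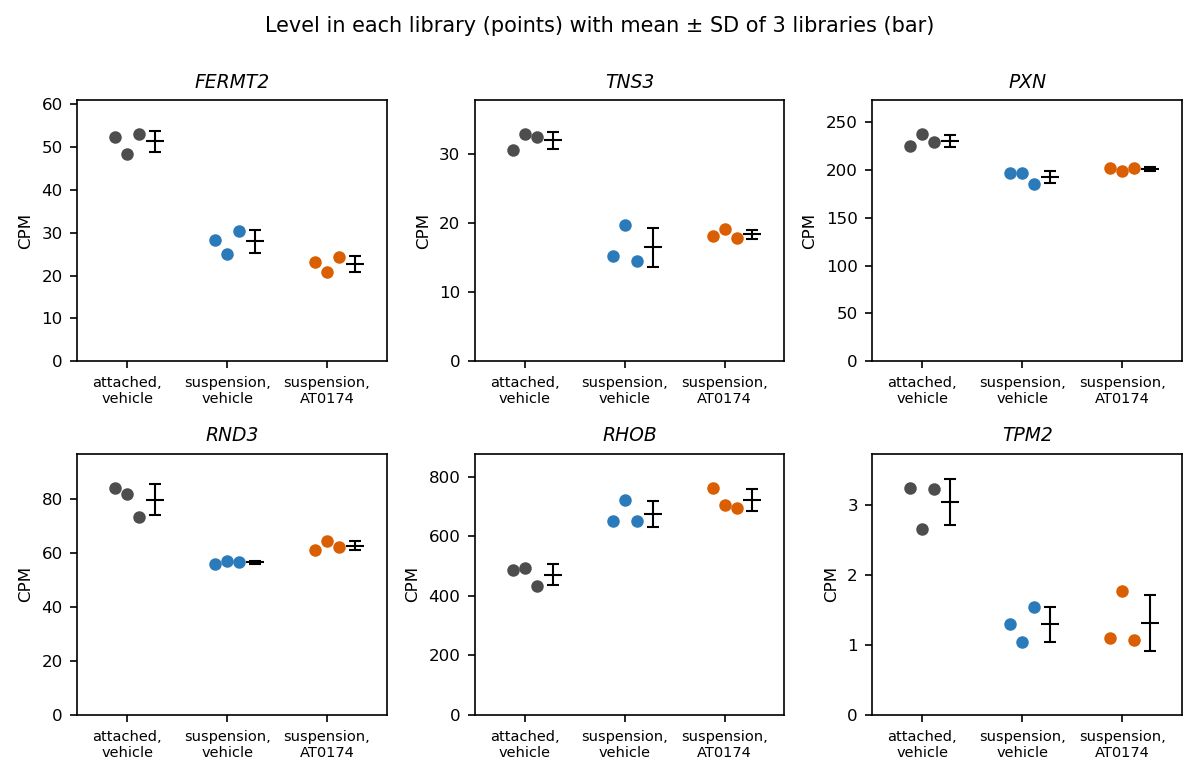
CPM (vertical axes, from 0) of 6 genes that differed between suspension and attachment, in each library (points) with the mean ± SD of 3 libraries (bars), by group (horizontal axis). FERMT2, TNS3, PXN, RND3 and TPM2 are lower and RHOB is higher in both suspension groups, with no overlap with the attached libraries.

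Of the 15 genes of actin and its binding and motor proteins, 4 passed with detachment (26.7%, against 21.2% of all genes tested). Of the 4, 3 were higher and 1 was lower (backgrounds 10.4% and 10.8%). The cytoplasmic actins were the most abundant of all members by TPM. *ACTG1* (chr17:81509413-81523847, minus strand), which encodes gamma-actin, had 2006, 2068 and 1873 CPM attached, 2431, 2553 and 2399 CPM in suspension with vehicle, and 2208, 2160 and 2062 CPM with AT0174. It rose by 0.31 in suspension (SE 0.041, adjusted p = 0.000484) and was lower with AT0174 by -0.20 (SE 0.041, adjusted p = 0.0465). Against attached cells, AT0174 in suspension was at 0.11 (SE 0.041, adjusted p = 0.0653), and 1 of its libraries lay within the attached range. The call with AT0174 was close to the threshold. It was lost under 9 of 20 other settings, including the removal of any 1 library of either group, with adjusted p-values of up to 0.183.

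*ACTB*, the beta-actin gene, had 3299, 3383 and 3058 CPM attached, 3575, 3758 and 3539 CPM in suspension with vehicle, and 3638, 3448 and 3369 CPM with AT0174. Its rise of 0.16 with detachment (SE 0.042, adjusted p = 0.0198) was lost without attached replicate 3 or without suspension vehicle replicate 2, with adjusted p-values of up to 0.0837. With AT0174 it was at -0.06 (SE 0.042, adjusted p = 0.772). The 2 genes have near-identical coding sequences and many pseudogenes, so the split of reads between them is uncertain. Their sum does not depend on the split between the pair. It was 4666 ± 300.2 TPM (SD, n = 3) attached, 5859 ± 221 TPM in suspension with vehicle and 5253 ± 254 TPM with AT0174, and *ACTG1* held 41.1%, 43.4% and 41.1% of it.

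*CNN2* (chr19:1026586-1039068, plus strand) encodes calponin-2, which binds and stabilizes filaments. It had 128, 126 and 125 CPM attached, 128, 131 and 128 CPM in suspension with vehicle, and 105.8, 104.4 and 110 CPM with AT0174. Detachment left its log2 fold change at 0.03 (SE 0.031, adjusted p = 0.537), and AT0174 lowered it by -0.27 (SE 0.031, adjusted p = 0.000727), to -0.24 against attached cells (SE 0.031, adjusted p = 0.000249). Both of the latter calls held under all 20 other settings. *CNN3*, a second calponin, was at 0.13 with detachment (SE 0.045, adjusted p = 0.0584, past the threshold under 7 of 20 other settings) and at -0.11 with AT0174 (SE 0.045, adjusted p = 0.485).

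*TPM2* (chr9:35681992-35690056, minus strand), which encodes the tropomyosin best known from muscle, was scarce and had the largest change of all members with detachment. It had 3.24, 2.66 and 3.22 CPM attached, 1.29, 1.04 and 1.55 CPM in suspension with vehicle, and 1.097, 1.768 and 1.065 CPM with AT0174. The log2 fold change with detachment was -1.23 (SE 0.221, adjusted p = 0.00283), on 46 to 125 counts per library. The abundant tropomyosins *TPM1* and *TPM4*, at 108 and 379 TPM, were at 0.06 and 0.01. *TAGLN2*, the gene of transgelin-2, had 198, 204 and 180 CPM attached, 224, 233 and 214 CPM in suspension with vehicle, and 236, 226 and 219 CPM with AT0174. Its rise of 0.21 (SE 0.048, adjusted p = 0.0112) was lost without suspension vehicle replicate 2 (adjusted p = 0.0510).

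The cross-linkers and the motor stayed closer to 0. *ACTN1*, *ACTN4*, the myosin heavy chain *MYH9* and its light chain *MYL6* had log2 fold changes from -0.01 to 0.01 with detachment, each smaller than its SE. *MYL9* had at most 4 counts in any library. *FLNA*, the gene of filamin A at 553 TPM, was at 0.04 with detachment (SE 0.032, adjusted p = 0.417) and at -0.145 with AT0174 (SE 0.032, adjusted p = 0.0665). Its AT0174 libraries, at 2475, 2469 and 2406 CPM, lay below the 3 with vehicle, at 2639, 2824 and 2663 CPM, and it passed under 4 of 20 other settings, the tests of DESeq2 and limma-voom, no filter on low counts and no mitochondrial-genome genes. The filament turnover genes *CFL1* and *PFN1* were at 0.07 and 0.04 with detachment and at 0.01 in each case with AT0174.

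**Figure D5:**
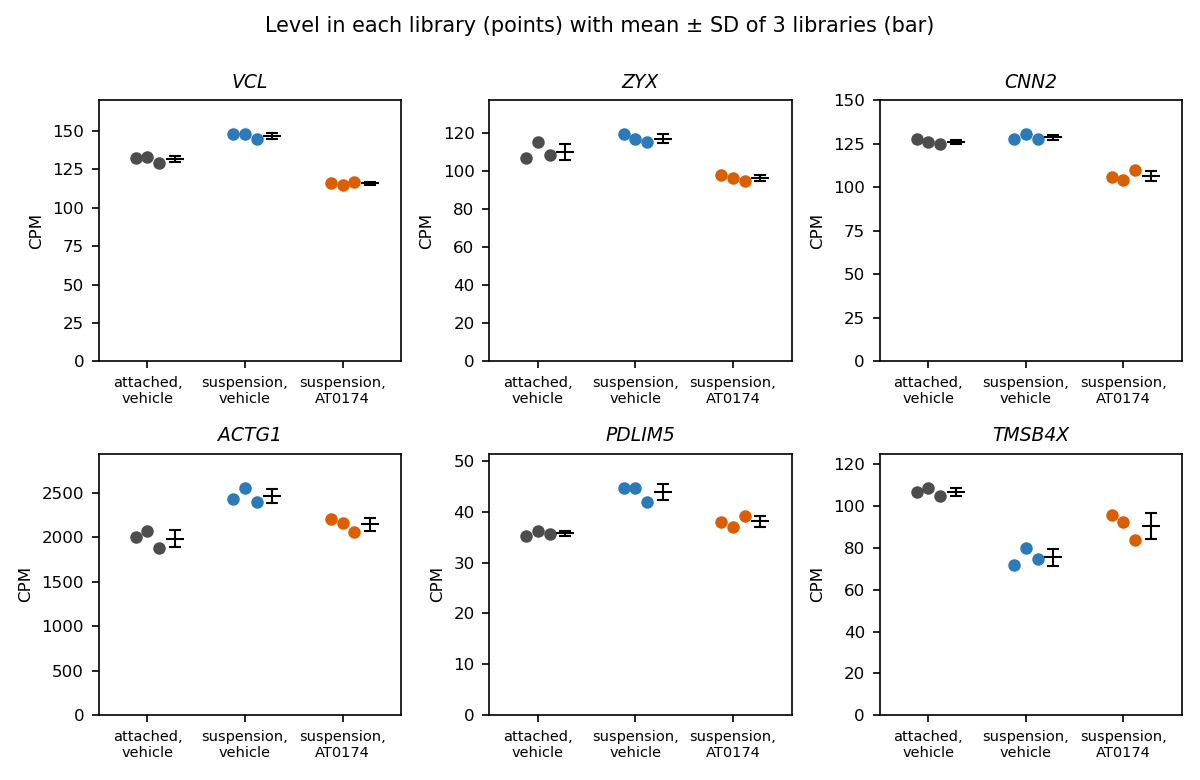
CPM (vertical axes, from 0) of the 4 members and the 2 further pathway genes (PDLIM5 and TMSB4X) that differed between AT0174 and vehicle in suspension, in each library (points) with the mean ± SD of 3 libraries (bars), by group (horizontal axis). VCL, ZYX and CNN2 lie below the attached libraries with AT0174, whereas ACTG1, PDLIM5 and TMSB4X lie between the other groups by mean.

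*RHOB* (chr2:20447074-20449440, plus strand), which is known as an immediate stress-response gene, had 488, 495 and 432 CPM attached, 651, 724 and 650 CPM in suspension with vehicle, and 763, 705 and 696 CPM with AT0174. It rose by 0.52 (SE 0.057, adjusted p = 0.000128), or 1.43-fold. *RND3* (chr2:150468195-150539011, minus strand) had 84.2, 82.0 and 73.4 CPM attached, 56.0, 57.1 and 56.7 CPM in suspension with vehicle, and 61.3, 64.5 and 62.4 CPM with AT0174. The fall was -0.50 (SE 0.048, adjusted p = 4.40e-05), and the AT0174 libraries lay wholly between the other groups, at 0.15 above vehicle (SE 0.048, adjusted p = 0.287, past the threshold only without a filter). A CArG box stood 72 to 63 bases before 1 of its 2 promoter entries and 100 to 91 bases before the other.

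*RHOA* had 537, 544 and 499 CPM attached, 594, 598 and 566 CPM in suspension with vehicle, and 667, 629 and 630 CPM with AT0174. The groups stepped upward without overlap, but only the first step passed, at 0.155 (SE 0.040, adjusted p = 0.0163) against 0.13 (SE 0.040, adjusted p = 0.229) for AT0174, which passed with DESeq2 and without a filter. The first was lost without attached replicate 3 or suspension vehicle replicate 2, with adjusted p-values of up to 0.0621. AT0174 in suspension against attached cells gave 0.29 (SE 0.040, adjusted p = 0.000444). *TCTA* overlaps *RHOA* on the other strand, at 49.7 CPM.

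*EZR*, which encodes the membrane linker ezrin, had 677, 678 and 672 CPM attached, 780, 718 and 707 CPM in suspension with vehicle, and 759, 728 and 776 CPM with AT0174. Its log2 fold change of 0.12 with detachment (SE 0.039, adjusted p = 0.0419) was lost under 7 of 20 other settings, among them the removal of any 1 attached library or of suspension vehicle replicate 1 or 2, and with AT0174 it was at 0.04 (SE 0.039, adjusted p = 0.8503). Moesin (*MSN*) was at 0.356 TPM, against 358 TPM for *EZR*. The caveolar genes fell below the count rule, *CAV1* with 0 counts in all libraries and *CAVIN1* with at most 5.

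When AT0174-treated cells in suspension were set against attached cells, 19 of the 50 genes passed (38%, background 24%), 6 higher and 13 lower (backgrounds 12.2% and 11.8%), and the groups did not overlap in 26, against 39.5% of all genes. This comparison shares libraries with both others and is no separate evidence. *FERMT2* reached -1.17 (SE 0.073, adjusted p = 7.24e-07) and *RHOB* 0.61 (SE 0.057, adjusted p = 2.25e-05). Members that passed here and in neither other comparison were *ITGAE* (0.25) and *TLN1* (0.10), which were higher, and *ITGA10* (-0.76), *TLN2* (-0.11), *ILK* (-0.09) and *FLNA* (-0.105), which were lower. Passing in 1 comparison and not in another does not show that the differences differ, and of these 6 genes only *ITGAE* passed under all 20 other settings.

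A further 111 genes of the same pathways were listed by hand, and 84 of them could be tested. With detachment 26 of the 84 passed (31%, background 21.2%), 16 higher and 10 lower, with a median log2 fold change of 0.006. Rises among those with separate groups were in *TNS4* (0.39, SE 0.096, adjusted p = 0.0131), a short tensin without the actin-binding part, in *LPP* of the zyxin family (0.35, SE 0.065, adjusted p = 0.00328) and in *PDLIM5*, a LIM protein of stress fibers (0.29, SE 0.041, adjusted p = 0.000724). The largest falls were in the myosin light chain kinase gene *MYLK* (-1.13, SE 0.230, adjusted p = 0.00542), in *TNS2* (-0.70, SE 0.065, adjusted p = 2.94e-05), in the actin monomer-binding thymosin gene *TMSB4X* (-0.50, SE 0.051, adjusted p = 7.52e-05) and in the kinase gene *ROCK2* (-0.29, SE 0.078, adjusted p = 0.0190). *TNS2* had 52.0, 51.4 and 56.3 CPM attached and 32.7, 33.1 and 32.2 CPM in suspension with vehicle, so among the tensins *TNS2* and *TNS3* were lower and *TNS4* higher. With counts rebuilt from TPM, *LPP* had a log2 fold change of -0.024 and the calls of *PDLIM5*, *MYLK* and *ROCK2* were lost, and *ROCK2* was also lost without attached replicate 3 or suspension vehicle replicate 2 or 3.

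With AT0174, 2 of the 84 further genes passed (2.38%, background 0.779%). *TMSB4X* had 107, 109 and 105 CPM attached, 71.9, 80.0 and 74.7 CPM in suspension with vehicle, and 95.9, 92.5 and 83.7 CPM with AT0174. It thus fell with detachment and was higher with AT0174 by 0.26 (SE 0.051, adjusted p = 0.0349), remaining at -0.24 against attached cells (SE 0.051, adjusted p = 0.00585). *PDLIM5* had 35.3, 36.3 and 35.7 CPM attached, 44.8, 44.8 and 42.0 CPM in suspension with vehicle, and 38.1, 37.1 and 39.2 CPM with AT0174, a log2 fold change of -0.20 (SE 0.041, adjusted p = 0.0418). Both calls were close to the threshold, *TMSB4X* passing under 12 and *PDLIM5* under 9 of 20 other settings, with adjusted p-values of up to 0.169 and 0.671. *TMSB4X* has near-identical copies elsewhere in the genome, so its counts are uncertain. The genes of SRF and its cofactors did not pass in either comparison. *SRF* had log2 fold changes of 0.038 with detachment and -0.065 with AT0174, *MRTFA* -0.063 and 0.004, and *MRTFB* 0.115 and -0.104.

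Of 145 tested genes with a CArG box in the 250 bases before a start, 4 passed as lower with AT0174 and 0 as higher (2.76%), against 0.261% lower among 10722 tested genes with a promoter entry, and the median log2 fold change was -0.007 against 0.001. Of the 4, 2 were the members *CNN2* and *ACTG1*. Of the 8 members with the box, the other 6 (*ACTN1*, *FLNA*, *ITGB6*, *RND3*, *TES* and *TPM4*) had log2 fold changes with AT0174 from -0.145 to 0.53 and did not pass. With detachment 28 of the 145 genes were higher and 18 lower, 31.7% in all against 23.3% of the 10722. No test was made on these counts, and *VCL* and *ZYX*, the other members called lower with AT0174, did not hold the box in this window.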

How the data were processed

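The deposited files of 9 RNA-seq libraries, 3 in each of 3 groups of MDA-MB-453 cells, were analysed. The authors trimmed reads with Trim Galore 0.6.7 (cutadapt 3.4), aligned them with STAR 2.7.9a to GRCh38 (Ensembl 104) and quantified them with Salmon 1.10.1, and deposited the estimated counts per gene. Transcript abundances are TPM values as the authors' Salmon runs gave them. The use of strand in counting is not given in the sources used here, and overlapping genes on opposite strands cannot then be told apart. The library kit is named differently in the study's methods and in the sample descriptions.

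Estimated counts were rounded and tested with edgeR 4.0.16 in R 4.3.3 (TMM factors, filterByExpr, quasi-likelihood F test, all 9 libraries in 1 fit), with Benjamini-Hochberg adjustment over 15528 genes and a threshold of 0.05. Every adjusted p in the text is from this fit unless another setting is named, and each SE was taken as the size of the log2 fold change over the root of its F value. The groups are described as biological triplicates. Alternatives were other size factors, DESeq2 1.42.0, limma-voom (limma 3.58.1), no filter, counts rebuilt from TPM, a fit on only the 6 libraries compared, the replicate number as a block, a threshold of 0.01 and each library left out. One more, without mitochondrial-genome genes, was chosen after the data had been seen.

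The member genes and all lists were chosen with earlier results of these data known. Values per library are given for members past the threshold and for ITGB1, TLN1, PTK2, ACTB and ACTG1. Further pathway genes were named if they were among the 4 largest rises or falls past the threshold with no overlap. A further gene that met this rule is not reported here. Genes were placed by GENCODE 44 (GRCh38), and promoters came from RefSeq (GRCh38.p14). Upper limits for 0 counts use 3 counts and cover counting error only.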

Additional observations from a re-analysis of the deposited data

How the results depend on the processing

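Of the 15 members called between suspension and attachment, 7 passed under all 20 other fits (PXN, FERMT2, TNS3, ACTG1, TPM2, RND3 and RHOB), and of the 4 called with AT0174, VCL and CNN2 did. In the comparison of AT0174 in suspension with attached cells 12 of 19 did. No called member changed sign. With AT0174 the number of members called was 9 with DESeq2 (2 higher), 9 without a filter (3 higher) and 2 with counts rebuilt from TPM, and over all genes 239, 499 and 35 in that order, against 52 at a threshold of 0.01. Of the further pathway genes DESeq2 called 5 and the fit without a filter 4, and 0 were called with the 6 libraries of the contrast, with counts rebuilt from TPM or at 0.01. For suspension against attachment, counts rebuilt from TPM called 1710 genes and 17 further pathway genes, and a threshold of 0.01 called 1405 and 15. For AT0174 in suspension against attached cells these were 2059 and 1839 genes, with 12 members at 0.01. LPP changed sign with counts rebuilt from TPM, to -0.024 in suspension with vehicle and -0.076 with AT0174, both against attached cells. The cause was not tested.

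Leaving out 1 library at a time gave 10 to 18 members for suspension against attachment, 3 to 4 for AT0174 and 14 to 19 for AT0174 in suspension against attached cells. Over all genes the ranges were 1935 to 3260, 63 to 128 and 2239 to 3680. Against 3297 genes with all libraries, the first fell to 1935 without attached replicate 3 and 1951 without suspension vehicle replicate 2. Against 121, the second was 63 to 70 without any 1 AT0174 library and 65 or 66 without suspension vehicle replicate 3 or 1. Against 3724, the last was 2239 without AT0174 replicate 1 and 2381 without attached replicate 3. Further pathway genes ranged from 19 to 27 in suspension and from 0 to 1 with AT0174.

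Libraries with the same replicate number did not deviate together (r from -0.07 to 0.05), so the numbers were not taken to pair them. With a replicate block 18, 5 and 17 members passed in the 3 comparisons in the order above, and 3250, 146 and 3677 of all genes. At this depth members with few counts, such as ITGB6 and SRC, had SEs of 0.322 to 0.499 over the 3 comparisons. Changes of that size were thus not detectable.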

Other observations

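Transcript shares of ITGB4 and VCL are given here as the authors' Salmon estimates, with no test. A retained-intron transcript of ITGB4 held 0% to 23.6% of the ITGB4 TPM in attached libraries, 0% to 11.3% in suspension with vehicle and 21.1% to 35.1% with AT0174. VCL-201 held 66.6% to 67.3% of the VCL TPM with AT0174, 54.4% to 69.1% with vehicle in suspension and 58.1% to 63.1% in attached cells.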
